A study of Mus musculus with 6 samples.

Results

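The transcripts described here are 10 long noncoding RNAs of the mouse: Malat1, Neat1 and Miat, which stay in the nucleus, and the 7 small nucleolar RNA (snoRNA) host RNAs Gas5, Snhg1, Snhg3, Snhg5, Snhg8, Snhg11 and Snhg12. They were chosen by name, as every probe set that the platform annotation gives to exactly 1 of these symbols, which found 28 of the 45101 probe sets on the array. Another 2 probe sets carried a member's symbol together with a second symbol and were left out.

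RNA came from primary mouse myoblasts, muscle precursor cells, labelled as 21 days old in both groups. In 3 arrays the cells had been infected with lentivirus carrying short hairpin RNA (shRNA) against LncMyoD, a long noncoding RNA, in the vector Tet-pLKO-puro. The other 3 arrays were controls, and the labels do not say which vector they received, whether an inducer was added or whether the cells were in growth or differentiation medium. The replicates are called biological in their titles, but no separate animal or culture is named, so a p-value here reflects only array-to-array spread, which may be technical. An array reads each transcript with probe sets of short oligonucleotides, and the values are log2 signals with no read depth, so the number of arrays limits the precision.

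Malat1 is a nuclear RNA concentrated at nuclear speckles, where splicing factors collect, and Neat1 is the scaffold of paraspeckles, nuclear bodies that form around it. The snoRNA hosts are RNAs whose introns are cut out and trimmed to snoRNAs, the guides that direct chemical modification of ribosomal RNA. Their spliced exons often carry short reading frames and are commonly removed by nonsense-mediated decay, and many of the hosts start with a run of pyrimidines, as messages of ribosomal proteins do.

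Across probe sets, which are not independent replicates, Pearson's r was 0.996 to 0.997 within a group and 0.987 to 0.990 between an shRNA and a control array. No probe set was named LncMyoD, so the level of the targeted RNA is not analysed here. Myoblast markers averaged 11.87 to 11.96 over their list in shRNA arrays and 11.58 to 11.71 in control arrays, and 4 of 7 rose and 0 fell. Markers of differentiated muscle averaged 13.28 to 13.31 in shRNA arrays and 13.56 to 13.61 in control arrays, and 5 of 7 fell and 0 rose. Over all 12408 tested genes, each by its brightest probe set, 35.7% rose and 22.8% fell. All 5 endothelial markers and all 3 measured adipocyte markers lay below the filter on low signals. Of 8 neuronal markers 4 passed it (3 rose, 1 fell), with Snap25, Syt1, Stmn2 and Rbfox3 below it, and the mean over the list was 7.12 to 7.22 in shRNA arrays and 6.93 to 6.99 in control arrays. Of 7 fibroblast markers 1 rose and 2 fell, with Dcn, Lum and Thy1 below the filter (6.85 to 7.07 in shRNA arrays, 6.97 to 7.03 in control arrays). Of 5 smooth muscle markers 1 fell (9.53 to 9.62 in shRNA arrays, 9.58 to 9.61 in control arrays), and of 5 measured leukocyte markers the 1 past the filter rose (5.55 to 5.97 in shRNA arrays, 5.51 to 5.75 in control arrays). The ratio of 3' to 5' signal, which rises as RNA degrades, was higher in shRNA arrays for both control transcripts. Its log2 value for actin was 0.55 ± 0.0175 in shRNA arrays and 0.51 ± 0.0179 in control arrays (SD, n = 3 each). For GAPDH it was 0.23 ± 0.0376 in shRNA arrays and 0.14 ± 0.0454 in control arrays. The two-sided exact permutation test gave p = 0.1 for each, and no smaller p is possible with 20 assignments. The part of cell state and of RNA integrity in the differences given here was not tested, and in bulk RNA fewer cells of a type and less RNA per cell cannot be told apart.

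The comparison asks which of these RNAs differ in cells in which LncMyoD was targeted by shRNA. Of the 28 probe sets, 23 from 8 genes passed the filter that left out the dimmest 40% of probe sets, those with a mean below 6.50. Of these 23, 10 fell, 2 rose and 11 did not pass the threshold, a limma p of 0.05 adjusted over all 27022 tested probe sets. The called share, 52.2%, stood beside 53.9% of all tested probe sets. By direction, 23.5% of all tested probe sets fell and 30.4% rose. In 12 of the 23 every shRNA array lay on one side of every control array, against 59.5% of all tested probe sets. The median difference was -0.073 over the 23 and 0.021 over all tested probe sets (log2, shRNA minus control).

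**Figure D1:**
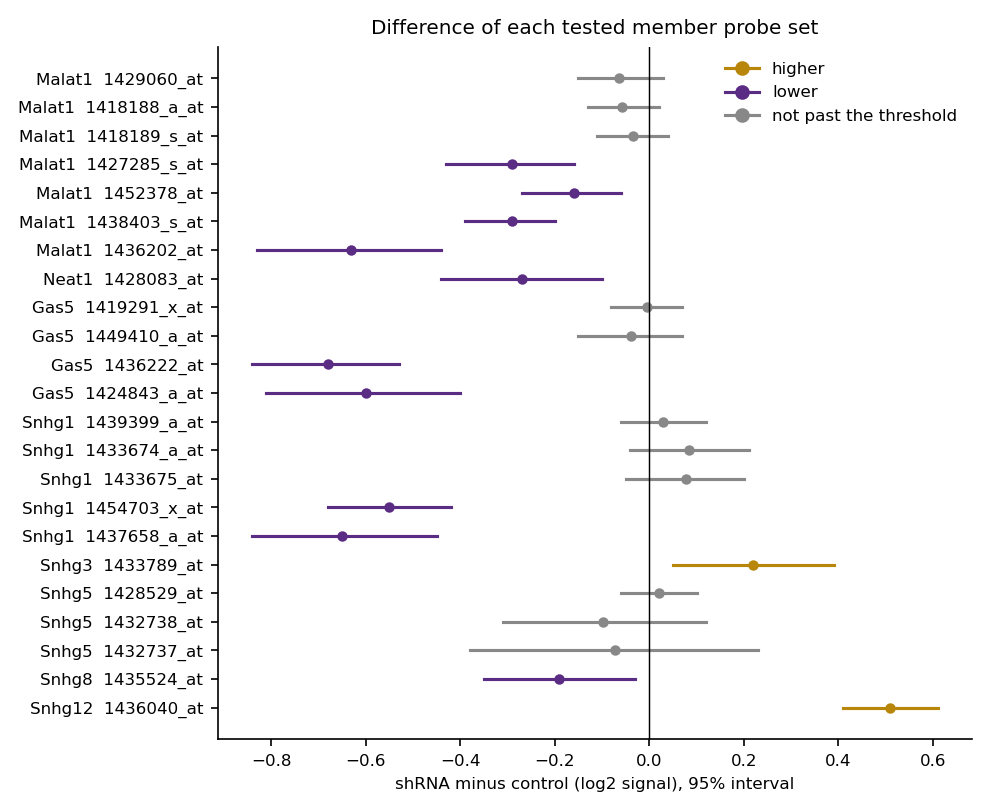
Difference in log2 signal, shRNA minus control, for each of the 23 tested probe sets (points) with limma's 95% interval (lines), in purple for lower, gold for higher and grey for not past the threshold. Gas5, Snhg1 and Malat1 each hold grey probe sets near 0 beside purple ones between -0.16 and -0.68, and Snhg12 stands alone at 0.51.

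Malat1 had 7 probe sets, of which 4 fell in shRNA arrays and 3 did not pass. The probe set with the largest decrease, 1436202_at, read 10.36, 10.16 and 10.32 in shRNA arrays, against 10.69, 11.11 and 10.94 in control arrays. Every shRNA value lay below every control value. The difference was -0.63 (SE 0.0904, limma adjusted p = 6.56e-05), a 1.55-fold decrease. On 1438403_s_at the signals were 11.09, 11.08 and 11.10 in shRNA arrays, against 11.32, 11.41 and 11.42 in control arrays (difference -0.29, SE 0.0448, limma adjusted p = 0.000116). On 1427285_s_at they were 11.71, 11.61 and 11.43, against 11.81, 11.89 and 11.92 in control arrays (difference -0.29, SE 0.0619, limma adjusted p = 0.00144). With a minimum fold of 1.2, neither 1438403_s_at nor 1427285_s_at passed (limma's treat, adjusted p = 0.774 and 0.905). The ending _s_at marks probes that can also match transcripts of other genes. The smallest decrease was that of 1452378_at, designed from the same sequence record as 1427285_s_at, at 11.55, 11.59 and 11.58 in shRNA arrays, against 11.67, 11.70 and 11.83 in control arrays. Its difference of -0.16 (SE 0.0481, limma adjusted p = 0.0128) was no longer called when control 3 was left out (-0.11, limma adjusted p = 0.0546). The call was also lost without a variance trend (0.0528), with arrays scaled on spike controls (0.309) and with a minimum fold of 1.2.

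The 3 brightest Malat1 probe sets differed little. The representative, 1429060_at, read 13.67, 13.62 and 13.59 in shRNA arrays and 13.62, 13.67 and 13.77 in control arrays, and the groups overlapped. Its difference was -0.064 with a 95% interval of -0.15 to 0.03 (limma adjusted p = 0.217). The other two, 1418188_a_at and 1418189_s_at, share 1 sequence record and differed by -0.0572 (95% interval -0.13 to 0.02) and -0.0334 (-0.11 to 0.04). Both were called lower when the arrays were centred on their medians (-0.12, limma adjusted p = 0.00568, and -0.0974, 0.0243). Averaged over its 7 probe sets, Malat1 differed by -0.22 (SE 0.039, limma adjusted p = 0.000287). In the reference annotation, the gene holds 1 nested small RNA gene, Mascrna, which is cut from the 3' end of the Malat1 transcript.

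Neat1, the next gene to Malat1 in the annotation, fell on the probe set that could be tested. On 1428083_at it read 11.33, 11.28 and 11.26 in shRNA arrays, against 11.35, 11.75 and 11.58 in control arrays. The groups did not overlap, but control 1 lay only just above the highest shRNA array, and the controls spread more (SD 0.203, against 0.0355 in shRNA arrays). The difference was -0.27 (SE 0.0777, limma adjusted p = 0.0101), a 1.21-fold decrease. It was not past the threshold without a variance trend (limma adjusted p = 0.0582) or with a minimum fold of 1.2. Leaving out control 2, the highest, gave -0.17 (limma adjusted p = 0.0446), and leaving out control 1, the lowest, gave -0.38 (9.99e-05). The second Neat1 probe set, 1442881_at, lay below the filter, at 6.23, 6.44 and 6.49 in shRNA arrays and 6.42, 6.24 and 6.46 in control arrays. Neat1 is made in a short and a long form, which the annotation lists as 2 transcripts. No probe sequences were used here, so neither probe set could be assigned to a form.

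Gas5 is annotated with 8 transcripts and 8 nested snoRNA genes, and its spliced RNA is known to accumulate when growth is arrested. It had 4 probe sets, which formed 2 pairs of unlike behaviour. On 1436222_at, the signals were 9.48, 9.39 and 9.50 in shRNA arrays, against 10.09, 10.28 and 10.05 in control arrays. On 1424843_a_at they were 8.79, 8.64 and 8.73 in shRNA arrays, against 9.27, 9.53 and 9.17 in control arrays. The groups were well apart on both, with differences of -0.68 (SE 0.0709, limma adjusted p = 3.86e-06), the largest decrease among the members, and -0.60 (SE 0.0939, limma adjusted p = 0.000132).

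The brighter Gas5 pair did not follow. On 1449410_a_at the values were 12.51, 12.62 and 12.54 in shRNA arrays and 12.66, 12.64 and 12.48 in control arrays. On 1419291_x_at, whose ending marks probes that can cross-hybridize, they were 12.64, 12.69 and 12.67 in shRNA arrays and 12.71, 12.67 and 12.63 in control arrays. The groups overlapped on both. The differences were -0.039 (95% interval -0.15 to 0.07, limma adjusted p = 0.543) and -0.00539 (-0.08 to 0.07, 0.917), so the intervals reach to decreases of 0.15 and 0.08.

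Snhg1, also annotated with 8 nested snoRNA genes, split in the same way over 5 probe sets. On 1437658_a_at the signals were 8.66, 8.53 and 8.51 in shRNA arrays, against 9.05, 9.37 and 9.21 in control arrays (difference -0.65, SE 0.0911, limma adjusted p = 5.87e-05). On 1454703_x_at they were 11.36, 11.13 and 11.23 in shRNA arrays, against 11.76, 11.87 and 11.73 in control arrays (difference -0.55, SE 0.0586, limma adjusted p = 5.03e-06). No shRNA array reached the lowest control array on either. The brightest probe set, 1439399_a_at, read 13.17, 13.29 and 13.28 in shRNA arrays and 13.28, 13.23 and 13.15 in control arrays, with overlap and a difference of 0.0297 (95% interval -0.06 to 0.12). The other 2 bright probe sets, from 1 shared sequence record, 1433674_a_at and 1433675_at, differed by 0.0845 (-0.04 to 0.21) and 0.0783 (-0.05 to 0.20) and did not pass.

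**Figure D2:**
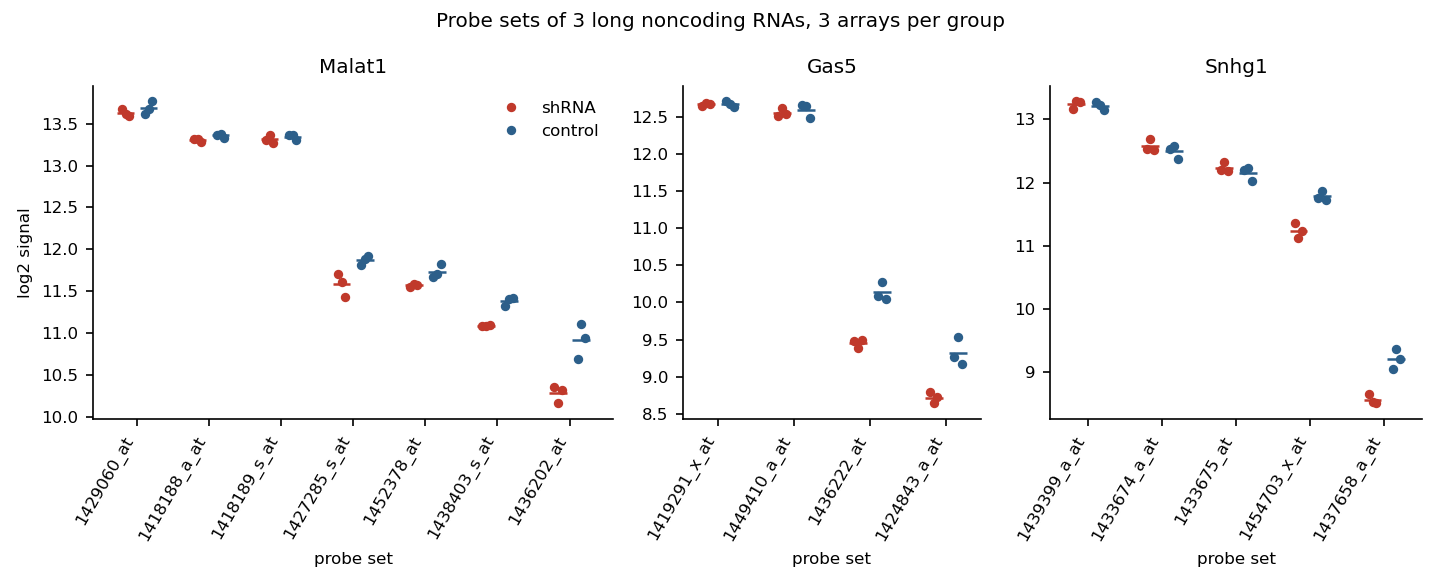
Log2 signal of every probe set of Malat1, Gas5 and Snhg1 on each array (points; bars are group means; shRNA left of control), with probe sets ordered from bright to dim within each gene. The bright probe sets lie close together in the 2 groups, and most dimmer ones separate, as in Gas5 1436222_at at 9.39 to 9.50 in shRNA arrays against 10.05 to 10.28 in control arrays.

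Whether probe sets of 1 gene changed unequally was tested directly, by fitting the difference between each other probe set and the gene's representative within each array. Over all genes 10575 such pairs were fitted, and 23.3% passed an adjusted p of 0.05. Of 5913 genes with more than 1 tested probe set, 32.5% had such a pair. Among the members 7 of 15 pairs passed: 2 of 3 in Gas5, 2 of 4 in Snhg1, 3 of 6 in Malat1 and 0 of 2 in Snhg5. In Gas5, 1436222_at changed by -0.64 relative to 1449410_a_at (SE 0.0898, limma adjusted p = 0.00197) and 1424843_a_at by -0.56 (SE 0.108, 0.00806). In Snhg1, 1454703_x_at changed by -0.58 relative to 1439399_a_at (SE 0.0938, limma adjusted p = 0.00386) and 1437658_a_at by -0.67 (SE 0.127, 0.00757). In Malat1, 1436202_at changed by -0.57 relative to 1429060_at (SE 0.112, limma adjusted p = 0.00911). The Malat1 pairs of 1438403_s_at and 1427285_s_at, both at -0.23 (limma adjusted p = 0.0364 and 0.0449), were each lost when single arrays were left out. Without control 1, 2 or 3 or shRNA array 2 both were lost (adjusted p of 0.0582 to 0.125). Without shRNA array 1 or 3 only 1 of them was lost (0.109 for 1438403_s_at and 0.0997 for 1427285_s_at). With no filter on low signals both were lost as well (limma adjusted p = 0.0599 for 1438403_s_at and 0.0815 for 1427285_s_at).

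The split ran with signal. Of the 9 member probe sets with a mean above 12, 0 passed limma's adjusted threshold (0 at an unadjusted p under 0.05), and of the 14 at 12 or below, 10 fell and 2 rose. This dividing signal was chosen after the values were seen, and Snhg12, at 11.96, lay just below it. Over all tested probe sets, 52.0% of those above 12 (25.3% lower, 26.7% higher) and 54.3% of those at 12 or below (23.2% lower, 31.1% higher) were called. Their median difference in size was 0.11 above 12 and 0.24 at 12 or below. The part of signal level in the unequal changes was not tested.

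**Figure D3:**
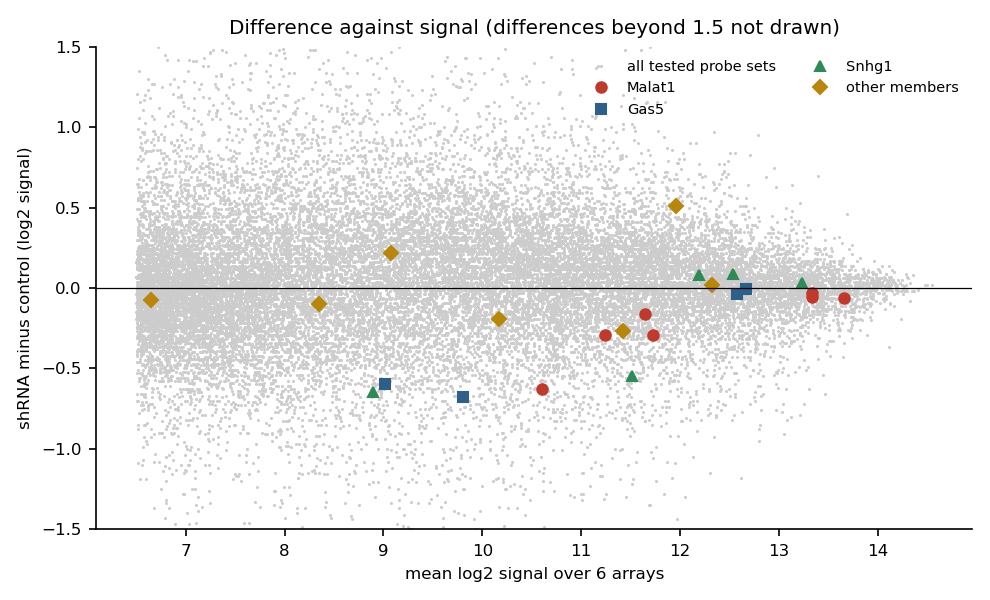
Difference in log2 signal, shRNA minus control, against the mean log2 signal over 6 arrays, for all 27022 tested probe sets (grey; differences beyond 1.5 not drawn) and the 23 of the members (coloured). Malat1, Gas5 and Snhg1 lie near 0 above a mean of 12 and below 0 at lower signals, and the grey cloud narrows towards the bright end.

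Among the other snoRNA hosts Snhg12 rose. Its single probe set, 1436040_at, read 12.23, 12.27 and 12.15 in shRNA arrays, against 11.75, 11.75 and 11.62 in control arrays. All shRNA values lay above all control values, and the difference was 0.51 (SE 0.0473, limma adjusted p = 1.45e-06), a 1.42-fold increase. Snhg12 is annotated with 4 nested snoRNA genes, Snora16a, Snora44, Snora61 and Snord99. It was the member with the largest increase, and it passed in all 13 other settings, at 0.44 to 0.54.

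Snhg3, annotated as host of Snora73a and Snora73b, rose by less on 1433789_at, with 9.13, 9.17 and 9.27 in shRNA arrays, against 9.02, 9.05 and 8.83 in control arrays. The groups did not overlap, but their nearest values were 9.13 and 9.05. The difference was 0.22 (SE 0.0803, limma adjusted p = 0.0335). The call was lost on leaving out control 3 (0.15, limma adjusted p = 0.131), shRNA array 2 (0.23, 0.0687) or shRNA array 3 (0.18, 0.127). It was also lost with the arrays centred (0.16, 0.0890), with spike scaling (0.24, 0.0705), with a replicate block (0.22, 0.0593) and with a minimum fold of 1.2.

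Snhg8, annotated as host of Snora24, fell on 1435524_at, with 10.03, 10.01 and 10.18 in shRNA arrays, against 10.26, 10.40 and 10.13 in control arrays. Here the groups overlapped, since control 3 lay below shRNA array 3. The difference was -0.19 (SE 0.0732, limma adjusted p = 0.0409), and the call was lost on leaving out control 1 (-0.20, limma adjusted p = 0.0588), control 2 (-0.12, 0.197), shRNA array 1 (-0.17, 0.113) or shRNA array 2 (-0.16, 0.137). It was also lost with no filter on low signals (limma adjusted p = 0.0564), with spike scaling (0.203), without a variance trend (0.0933) and with a replicate block (0.0724). A minimum fold of 1.2 removed it as well.

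Of the 3 probe sets of Snhg5, annotated with 2 nested snoRNA genes, 0 passed limma's adjusted threshold (0 at an unadjusted p under 0.05). The brightest, 1428529_at, read 12.31, 12.34 and 12.32 in shRNA arrays and 12.32, 12.35 and 12.25 in control arrays, a difference of 0.0195 (95% interval -0.06 to 0.10, limma adjusted p = 0.702). The 2 dimmer ones share a sequence record and differed by -0.0978 (1432738_at, -0.31 to 0.12) and -0.0734 (1432737_at, -0.38 to 0.23). Their intervals reach as far as -0.38, so decreases of that size are not outside the precision of 3 arrays a group.

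Miat, a nuclear RNA best known from neurons and retina, and Snhg11 lay below the filter on all their probe sets and were not tested. Miat read 6.42, 6.41 and 6.37 in shRNA arrays and 6.26, 6.30 and 6.33 in control arrays on 1458903_at. On 1455325_at it read 5.58, 5.39 and 5.45 in shRNA arrays and 5.78, 5.57 and 5.83 in control arrays. Snhg11 lay at 5.19 to 5.92 in shRNA arrays and at 5.23 to 5.65 in control arrays over its 2 probe sets. No detection calls were used here, so whether these signals lay above background was not tested. With no filter applied, 0 of the 5 member probe sets below it passed limma's adjusted threshold (adjusted p of 0.140 to 0.959; 0 at an unadjusted p under 0.05).

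**Figure D4:**
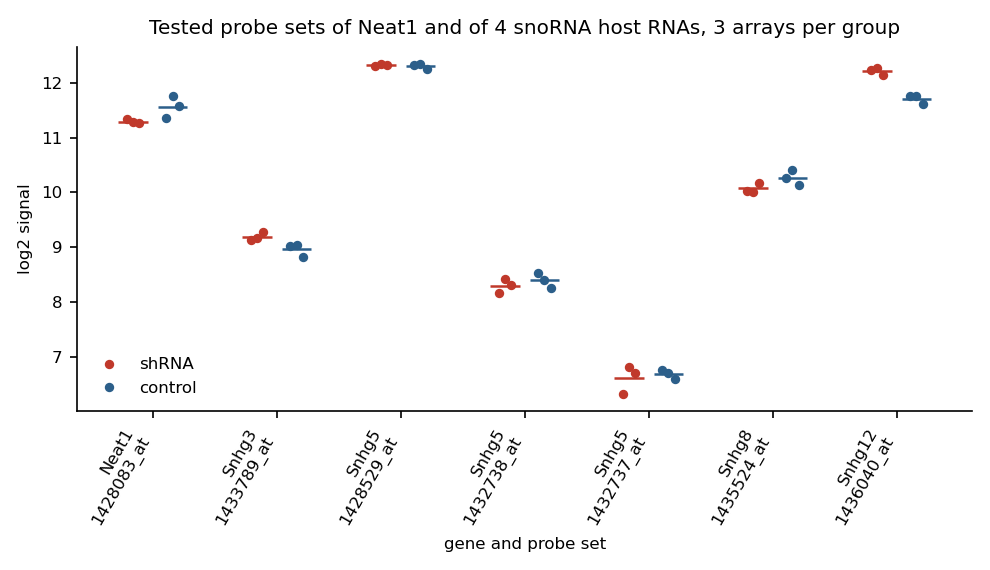
Log2 signal on each array (points; bars are group means; shRNA left of control) for the tested probe sets of Neat1, Snhg3, Snhg5, Snhg8 and Snhg12. Snhg12 separates clearly, at 12.15 to 12.27 in shRNA arrays against 11.62 to 11.75 in control arrays, while Snhg8 and the 3 probe sets of Snhg5 overlap between the groups.

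The count of changed genes depended on the probe set that stood for a gene. By the brightest probe set, with those ending in _x_at used only where no other existed, 4 of 8 tested members passed: Snhg12 and Snhg3 rose and Neat1 and Snhg8 fell. Over all 12408 genes 58.5% passed by this rule. With all tested probe sets of a gene averaged, 7 of 8 members passed, beside 59.5% of all genes. Gas5 then differed by -0.33 (SE 0.0499, limma adjusted p = 6.89e-05) and Snhg1 by -0.20 (SE 0.0446, 0.00166), while Snhg5 stood at -0.05 (SE 0.0738, 0.581).

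The start sites of all 7 snoRNA hosts are shown because this class is known for a pyrimidine run at the first base. Promoter entries from RefSeq (GRCm38.p6), each 250 bases before to 50 bases after a start, existed for 9 of the 10 members and held 10 starts, 2 of them of Gas5. The windows below run 5′ to 3′ from 40 bases before the start to 30 bases from the start on. Capitals mark a C followed by 4 or more C or T that begins within 10 bases of the start.
Gas5, chr1:161034561-161034630, plus strand: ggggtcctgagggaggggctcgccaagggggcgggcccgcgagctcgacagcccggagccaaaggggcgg
Gas5, chr1:161035126-161035195, plus strand: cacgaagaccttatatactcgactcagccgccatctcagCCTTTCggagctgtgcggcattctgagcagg
Snhg1, chr19:8723447-8723516, plus strand: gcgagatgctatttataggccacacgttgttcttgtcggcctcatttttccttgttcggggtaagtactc
Snhg3, chr4:132353657-132353726, minus strand: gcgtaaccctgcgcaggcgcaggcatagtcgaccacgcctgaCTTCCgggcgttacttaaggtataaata
Snhg5, chr9:88522868-88522937, minus strand: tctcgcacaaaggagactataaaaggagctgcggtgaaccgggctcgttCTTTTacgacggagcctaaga
Snhg8, chr3:123508307-123508376, minus strand: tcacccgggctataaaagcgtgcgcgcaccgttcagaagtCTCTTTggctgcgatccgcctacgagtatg
Snhg11, chr2:158375673-158375742, plus strand: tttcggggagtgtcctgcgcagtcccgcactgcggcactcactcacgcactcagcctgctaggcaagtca
Snhg12, chr4:132308638-132308707, plus strand: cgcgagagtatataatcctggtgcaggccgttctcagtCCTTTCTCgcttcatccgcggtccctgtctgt

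Such a run was found in 6 of the 10 member entries, those of Snhg12, Snhg8, Snhg5, Snhg3, Miat and 1 of the 2 of Gas5, against 29.7% of all 32851 entries. It was present in hosts that rose (Snhg12, Snhg3), in Snhg8, which fell, and in Snhg5, which did not pass. With the start counted as base 1 and the base before it as -1, the places of the runs differed. The run began at -2 in Snhg12, at -1 in Gas5 and Miat and at 1 in Snhg8. In Snhg3 it began at 3 and in Snhg5 at 10, so in these hosts it did not include the first base. The letters TATAAA, searched on both strands, occurred in 4 of the 10 entries, those of Snhg1, Snhg3, Snhg5 and Snhg8, against 13.6% of all entries. In Snhg5 and Snhg8 they lay before the start on the transcript strand. In Snhg1 they lay before the start on the opposite strand, and in Snhg3 after the start. CANNTG, the E-box read by myogenic factors, occurred in 4 of 10 entries (72.3% of all), and its form CAGCTG in 2, those of Malat1 and Snhg11 (16.3% of all). CACGTG, another form of the E-box, occurred in 0 of 10 (7.15% of all). A match is a description of letters and not a bound site.

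Genes next to the members in the annotation were set beside them. Frmd8, on the far side of Neat1 from Malat1, read 9.57 ± 0.0447 in shRNA arrays and 8.79 ± 0.0971 in control arrays (SD, n = 3 each), an increase of 0.78 (SE 0.0732, limma adjusted p = 1.58e-06) beside the decrease of Neat1. Both neighbours of Snhg1 rose: Slc3a2, the heavy chain of amino acid transporters, by 0.38 (SE 0.0378, limma adjusted p = 2.84e-06), and Wdr74, a ribosome assembly factor, by 0.28 (SE 0.054). Trnau1ap, next to Snhg12 and involved in selenocysteine incorporation, rose by 0.24 (SE 0.0534). Phactr4 rose by 0.30 (SE 0.038) beside Snhg3. Rcc1, the exchange factor of the GTPase Ran and the other neighbour of Snhg3, rose by 0.16 (limma adjusted p = 0.0250), a call lost without control 2 or 3 or any single shRNA array and with the arrays centred (changes of 0.0936 to 0.18 over all settings). Zbtb37 beside Gas5 (-0.0447, limma adjusted p = 0.811) and Syncrip beside Snhg5 (0.0512, 0.367) did not pass. Beside Snhg11, Ralgapb rose by 0.33 (SE 0.038) and Snhg17 by 0.27 (SE 0.0879), the last not without control 3 or shRNA array 1 or 2 (0.21 to 0.34 over all settings).

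RNAs that encode proteins of the nuclear bodies that Malat1 and Neat1 belong to moved both ways. The arrays read RNA and no protein was measured, so a protein named here or below stands for its RNA. Of 15 tested paraspeckle proteins 3 rose and 4 fell, while 8 did not pass. The called share was 46.7%, beside 58.5% of all genes (35.7% higher, 22.8% lower). The median difference of the 15 was -0.0532, against 0.0457 over all genes. Pspc1, a core paraspeckle protein that binds Neat1, fell to 9.99 ± 0.0974 in shRNA arrays, against 10.69 ± 0.077 in control arrays, a difference of -0.69 (SE 0.0632, limma adjusted p = 1.20e-06). Of the RNA cleavage factor subunits, Nudt21 fell by 0.30 (SE 0.0483) and Cpsf6 rose by 0.26 (SE 0.0366), and each had another probe set called the opposite way. Taf15, an RNA-binding protein, rose by 0.43 (SE 0.107), and its 1 other probe set did not pass. Of 16 nuclear speckle proteins 4 rose, 8 fell and 4 did not pass (75.0% called, median -0.0676). The splicing factors Srsf2 (-0.48, SE 0.0592) and Srrm1 (-0.35, SE 0.0365) fell, and Srsf6 (0.33, SE 0.0405) and the kinase Clk1 (0.29, SE 0.0458) rose. With the arrays scaled on spike controls, the counts of speckle proteins were 2 higher and 2 lower, and those of paraspeckle proteins 3 and 2. With the arrays centred, 8 paraspeckle proteins fell.

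RNAs of proteins that bind and assemble snoRNAs rose in 9 of 16 tested cases and fell in 3, beside 35.7% higher and 22.8% lower over all genes. The median difference of these 16 was 0.12. Under both rescalings 5 rose, with 4 that fell on centring and 2 on spike scaling. Nhp2, a core protein of the box H/ACA snoRNAs, fell to 9.90 ± 0.0529 in shRNA arrays, against 11.08 ± 0.124 in control arrays, a 2.26-fold decrease (difference -1.18, SE 0.0643, limma adjusted p = 1.36e-08). Znhit3, an assembly factor of the box C/D class, fell by 0.51 (SE 0.0729). Naf1, which assembles the box H/ACA class, rose by 0.49 (SE 0.0432, limma adjusted p = 8.70e-07), and Nop56, a core protein of the box C/D class, rose by 0.28 (SE 0.0439).

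Of 12 tested factors of nonsense-mediated decay 6 rose, 0 fell and 6 did not pass. Over all genes 58.5% were called, 35.7% higher and 22.8% lower. The median difference of these 12 factors was 0.12, against 0.0457 over all genes. With the arrays centred, 3 rose and 2 fell, and with spike scaling 2 rose and 0 fell. Smg5, which recruits decay enzymes, rose by 0.23 (SE 0.0395, limma adjusted p = 0.000279) and Rbm8a, of the exon junction complex, by 0.19 (SE 0.0421), the second not past the threshold with spike scaling. Each had 1 other probe set, which did not pass. Of 24 tested protein-coding genes that host snoRNAs 4 rose and 6 fell, a called share of 41.7%, and the median difference was -0.00849. On centring 1 rose and 10 fell, and on spike scaling 1 rose and 2 fell. Rps2, a ribosomal protein, fell by 0.34 (SE 0.036) and Eif4a1, a helicase of translation initiation, by 0.26 (SE 0.036), while Nop56 rose and Rpl13a rose by 0.13 (SE 0.0328). The calls of Eif4a1 and Rpl13a were lost with spike scaling, that of Rpl13a also on centring (0.0681), and neither of the other 2 probe sets of Eif4a1 passed.

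**Figure D5:**
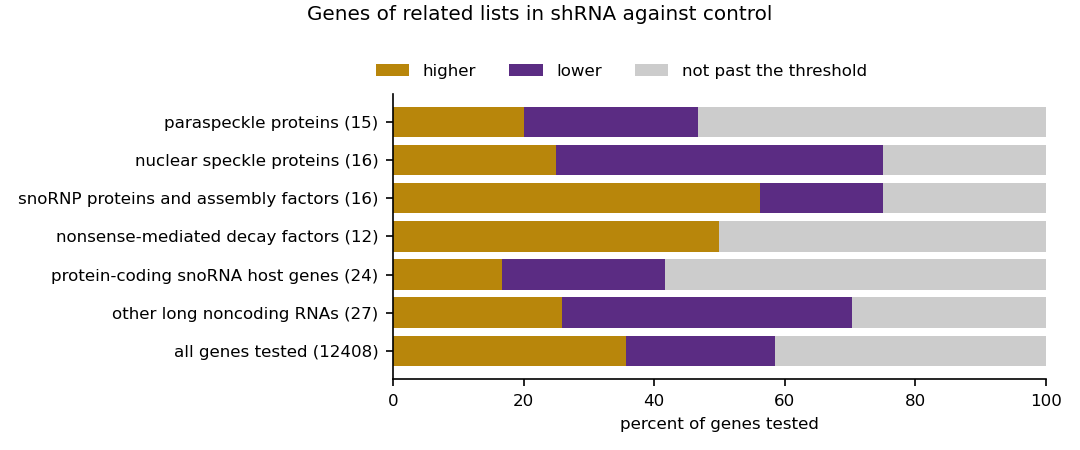
Percent of tested genes that were higher (gold), lower (purple) or not past the threshold (grey) in shRNA against control arrays, for 6 lists of related genes and for all genes; numbers in brackets are genes tested. RNAs of speckle proteins fell in 8 of 16 cases and those of snoRNA-binding proteins rose in 9 of 16, beside 22.8% lower and 35.7% higher over all genes.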

How the data were processed

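Transcripts of primary mouse myoblasts were measured on 6 oligonucleotide arrays. The authors deposited normalized values on a log2 scale, a reading that rests on their range of 4.48 to 14.6. The array of control 1 had a median of 7.23. PLIER and MAS5 appear, without roles or versions, in the submitters' processing notes. Of the columns of values 0 were without a sample. Of 45101 probe sets, 34958 had 1 symbol, 932 several and 9211 none.

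After 64 control probe sets, the dimmest 40% of the rest were left out. The other 27022 were fitted with limma 3.58.1 in R 4.3.3 (lmFit, eBayes with a variance trend, shRNA minus control, no covariates), with Benjamini-Hochberg adjustment over all of them and a threshold of 0.05. SE is limma's. The calculations were tested on simulated data. A gene is represented by its brightest probe set (_x_at only without another). Members and lists were chosen with earlier results of these data known. Genes outside the members were named by rule: the nearest annotated gene on each side (genes nested in a member skipped), up to 2 that rose and 2 that fell per list with the smallest p, and the 3 most like the member probe set of largest change. Same-numbered arrays did not deviate together, so no pairing was used.

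Alternatives were other filters (none, 60%), 2 rescalings, no variance trend, a replicate block, a minimum fold of 1.2 (limma's treat), other rules for the probe set of a gene, and leaving out each array.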

Additional observations from a re-analysis of the deposited data

How the results depend on the processing

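The number of called member probe sets, 12, lay between 9 and 13 in the alternatives except with a minimum fold of 1.2, which left 6 (1 higher, 5 lower). The share of all tested probe sets called in each alternative is not given here. These counts, and those of the lists under rescaling, therefore have no share to stand beside. The count that rose, 2, was 1 with the arrays centred on their median, with spike scaling, with the replicate block and with the minimum fold, and 1 to 2 when single arrays were left out, since Snhg3 was lost. The count of changed genes, 4, was 2 with spike scaling, without a variance trend and with the replicate block, 1 with the minimum fold, 7 with probe sets averaged and 2 to 3 without single arrays. Of 7 unequal pairs, 5 to 6 passed without single arrays and 5 with the replicate block. The replicate block changed no other call of a member than those of Snhg3, Snhg8 and the Malat1 pairs of 1438403_s_at and 1427285_s_at. Both of these Malat1 pairs were also lost with no filter on low signals. Same-numbered arrays had deviations correlated at -0.134, -0.0616 and 0.0307. Centring removed 0.064 between the groups and spike scaling -0.0232, with array shifts up to 0.20.

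Signs turned only in differences that did not pass. With the arrays centred, Snhg1 1439399_a_at stood at -0.0343, Snhg5 1428529_at at -0.0445 and Syncrip at -0.0128. With spike scaling, Gas5 1419291_x_at stood at 0.0178 and the median of protein-coding snoRNA hosts at 0.0147. Without single arrays, Gas5 1419291_x_at ranged from -0.0233 to 0.0135, Snhg1 1439399_a_at from -0.00396 to 0.068, Snhg5 1428529_at from -0.00774 to 0.0412, Snhg5 1432737_at from -0.17 to 0.0716 and Zbtb37 from -0.18 to 0.12. The Malat1 pairs ranged from -0.0505 to 0.0478 (1418188_a_at) and from -0.032 to 0.0741 (1418189_s_at), and the Snhg5 pair of 1432737_at from -0.18 to 0.0466. No read depth exists, and signals near the lower end were not tested against background.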

Other observations

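A chosen list of 54 other long noncoding RNAs moved both ways. Of the 32 with a probe set 27 were tested, of which 7 rose and 12 fell, and the median difference was -0.12, against 0.0457 over all 12408 genes, of which 35.7% rose and 22.8% fell. Oip5os1, a conserved RNA, fell to 12.09 ± 0.00983 in shRNA arrays, against 12.70 ± 0.0423 in control arrays (SD, n = 3 each, difference -0.61, SE 0.0373, limma adjusted p = 3.57e-08). Firre, which is transcribed from the X chromosome and held in the nucleus, fell by 0.60 (SE 0.0582, limma adjusted p = 2.16e-06), with 1 of its 3 other probe sets called the same way. Dleu2, a host of microRNAs, rose to 8.92 ± 0.0243 in shRNA arrays, against 8.0 ± 0.0985 in control arrays (difference 0.93, SE 0.0835, limma adjusted p = 1.11e-06). Pvt1, the neighbour of Myc, rose by 0.62 (SE 0.0783, limma adjusted p = 2.31e-05), with all 3 of its other probe sets called the same way. Of the 7 tested genes of this list with an Snhg symbol, a subset taken after the values were seen, 3 rose, 3 fell and 1 did not pass.

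Across the 6 arrays, the genes whose signals were most like those of Gas5 1436222_at were Slc4a3, an anion exchanger (Pearson r = 0.999), Dancr, another snoRNA host RNA (0.997), and Snd1, an RNA-binding nuclease (0.997). They fell by 0.63, 0.45 and 0.40. The correlation is a description over 6 arrays that share 2 groups, and 912 of 12400 genes compared had an r above 0.95.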
